A study of Mus musculus with 8 samples.

Results

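The keratin genes of mouse hair follicle stem cells were followed across knockout genotypes of the transcription factors NFIB and NFIX. The family was taken as every gene of the deposited expression table whose symbol is Krt followed by a number and at most 1 letter, which gave 51 of 46517 genes. Of these, 25 reached 1 TPM in at least 2 of the 8 libraries and could be tested on TPM, and the other 26 are described mostly by their levels. A further test on read counts also took in some of these 26. TPM is a relative abundance corrected for transcript length, so levels can be compared between genes, and its total is the same for each library.

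Bulk RNA was sequenced from sorted cells of male back skin, taken on postnatal day 70 in the second resting phase of the follicles. All 4 groups held 2 libraries, each from an animal with its own number. NFIB/X-dKO mice (animals 33 and 36) carried Sox9-CreER, NFIBfl/fl, NFIXfl/fl and R26-YFPfl/fl. NFIB-cKO mice (81 and 85) carried Sox9-CreER, NFIBfl/fl and R26-YFPfl/fl. NFIX-cKO mice (32 and 88) carried Sox9-CreER, NFIBfl/+, NFIXfl/fl and R26-YFPfl/fl, so they also had 1 floxed Nfib allele. WT mice (34 and 82) carried NFIBfl/fl, NFIXfl/fl and R26-YFPfl/fl without the Cre. The sort kept live cells (DAPI-) that stained for CD34 and integrin alpha 6 but not Sca-1. In the knockout groups, and not in WT, it also required YFP. Sox9-CreER is a Cre recombinase driven from the Sox9 gene and joined to an oestrogen receptor domain, so all 6 knockout libraries share the Cre and the YFP gate, and in any comparison with WT these cannot be told apart from the loss of a factor.

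Keratins are the intermediate filament proteins of epithelial cells. Each filament pairs an acidic type I keratin with a basic type II keratin, and the pair in use marks the layer: Krt5 with Krt14 in basal cells, Krt1 with Krt10 in cells that leave the basal layer, and hair keratins in the shaft. In the resting follicle Krt15 and Krt24 are known from the outer bulge, where the stem cells lie, while Krt6a and Krt75 belong to the inner bulge and companion layer, and Krt6, Krt16 and Krt17 are raised in wounded epidermis.

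Krt24 and Krt75 were the keratins called lower in NFIB-deleted genotypes (NFIB/X-dKO and NFIB-cKO, named by their labels) against the others. The 250 bases before their start sites, from RefSeq (GRCm38.p6), are printed because NFI proteins bind a palindrome of TTGGC, any 5 bases and GCCAA. Capitals mark its core TTGGC, a part of that palindrome, on either strand (as GCCAA on the other), and both promoters are read on the minus strand, 5′ to 3′.
Krt24, chr11:99285263-99285512: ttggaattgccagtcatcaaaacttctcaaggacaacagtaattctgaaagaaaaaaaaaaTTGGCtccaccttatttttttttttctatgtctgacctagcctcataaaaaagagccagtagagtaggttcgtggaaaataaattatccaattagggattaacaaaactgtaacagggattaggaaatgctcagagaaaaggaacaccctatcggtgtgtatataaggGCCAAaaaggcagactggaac
Krt75, chr15:101573905-101574154: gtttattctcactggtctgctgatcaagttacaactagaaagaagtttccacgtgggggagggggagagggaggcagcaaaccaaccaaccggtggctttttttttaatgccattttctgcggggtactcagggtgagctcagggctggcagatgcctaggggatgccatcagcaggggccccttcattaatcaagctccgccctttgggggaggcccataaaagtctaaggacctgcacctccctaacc
The Krt24 window held 2 cores on opposite strands, at -189 and -21 from the start site, and these letters are not in the Krt75 window. Over windows of 300 bases (250 before and 50 after the start), 22 of the 36 promoters of 35 keratin genes held the core on either strand, against 46.7% of all 32851 promoters. The whole palindrome was in 0 of the 36 and in 0.0365% of all promoters. The TATA box letters TATAAA, searched on both strands, were in 19 of the 36, against 13.6% of all. A match here is a description of the letters and not a bound site.

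Expected counts, the reads that RSEM assigns to genes, summed to between 57173266 and 66854625 in the 5 libraries that have them (both of NFIB/X-dKO, both of NFIX-cKO and NFIB-cKO 85), and the depth of the other 3 was unknown. Nfib read 377 and 389 TPM in NFIB/X-dKO, 293 and 233 in NFIB-cKO, 199.97 and 148 in NFIX-cKO, and 229.6 and 209 in WT. Nfix read 125 and 148 TPM in NFIB/X-dKO, 154 and 147 in NFIB-cKO, 138 and 123 in NFIX-cKO, and 158 and 157 in WT. Totals of the targeted genes include reads outside any deleted part, which the labels do not name, so they check no label. Summed markers of other cells were low for endothelium and muscle (1.58 to 2.4 TPM over 6 genes) and higher for melanocytes (64.3 to 112 TPM over 6 genes) and immune cells (11.9 to 48.9 TPM over 7 genes). Most of the melanocyte sum was Mitf (45.3 to 79.6 TPM), and most of the immune sum was Cd74 (9.49 to 41.4 TPM). Animal numbers fell into a 30s range and an 80s range that split the libraries beyond genotype: with groups in the model, 15.8% of 15434 genes differed between the ranges. NFIB/X-dKO lay wholly in the 30s and NFIB-cKO in the 80s, whereas NFIX-cKO and WT each held 1 animal per range.

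Keratins together made up 3.16% to 4.14% of all TPM, and few of them made most of it. Krt5 was the most abundant of all genes in 5 libraries and never below rank 6, and Krt15 lay between rank 1 and rank 10. Of the 51 keratins, 15 had a mean of at least 10 TPM in at least 1 group and 25 a mean of at least 1 TPM, 24 stayed below 1 TPM in every library, and 2 of those, the hair keratins Krt33b and Krt81, were listed at 0 throughout. Type I genes numbered 27 on chromosome 11, of which 13 passed the filter, and 1, Krt18, on chromosome 15, beside 23 type II genes of which 12 passed. Krt74, counted among the type II and inner root sheath genes, is annotated as a transcribed pseudogene in GENCODE M21 and did not pass. By class, both basal keratins passed, as did 5 of 5 inner bulge and wound keratins, 6 of 8 suprabasal, 2 of 3 bulge, 3 of 5 simple epithelial, 4 of 8 inner root sheath, 1 of 14 hair shaft and 0 of 4 mucosal and corneal keratins, and both keratins left unclassed (Krt42 and Krt222).

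**Figure D1:**
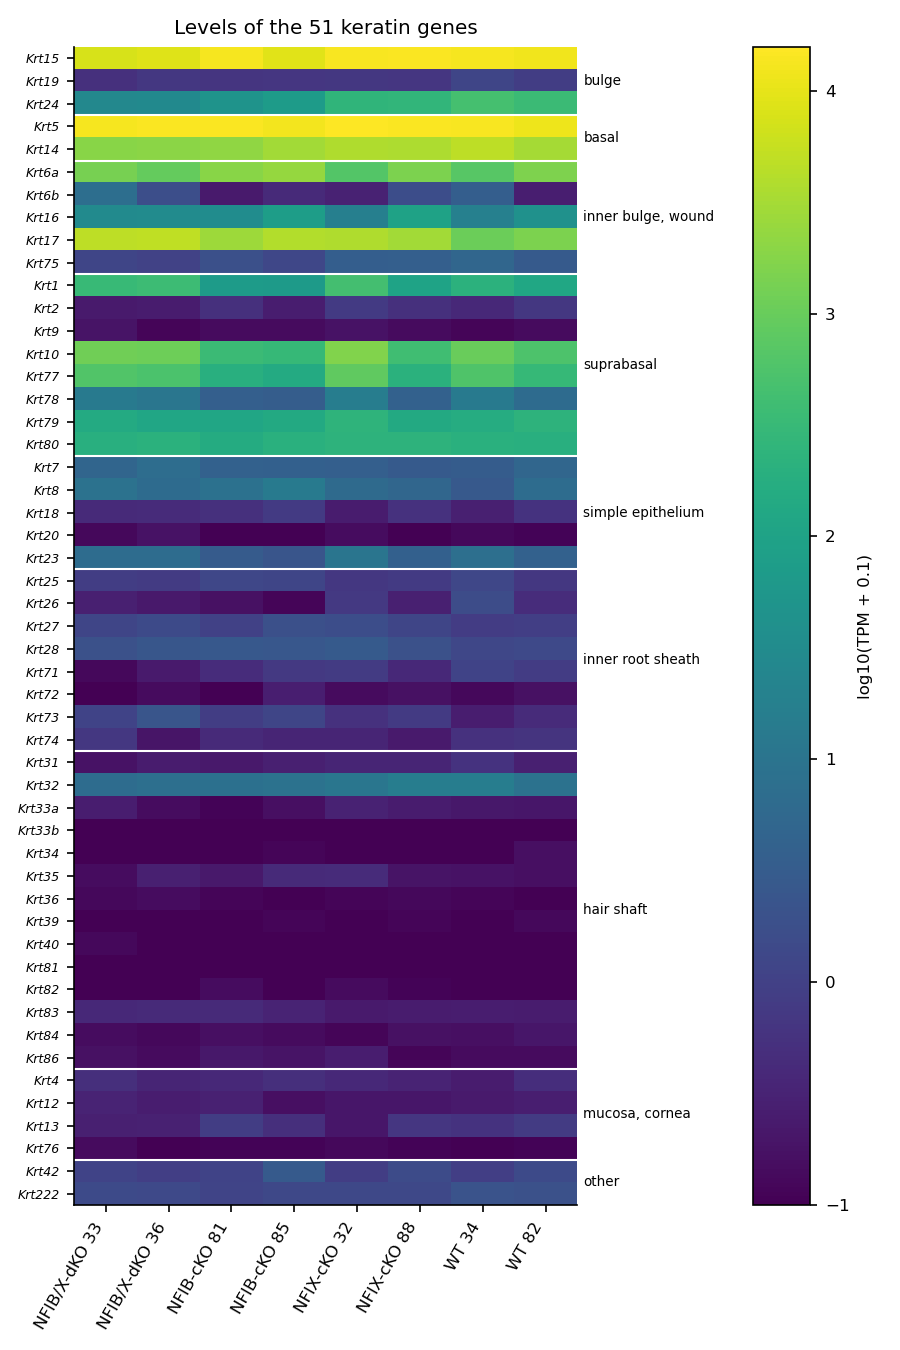
Levels of all 51 keratin genes (rows, by class) in the 8 libraries (columns), as log10(TPM + 0.1) in colour. Krt5, Krt14, Krt15, Krt17 and Krt6a are bright in every library, Krt24 darkens in the NFIB/X-dKO and NFIB-cKO columns, and 24 genes stay below 1 TPM in all 8.

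Krt24, a type I keratin of the bulge (chromosome 11, 99279959 to 99285262, GRCm38), had the largest difference of the 25 tested keratins in NFIB/X-dKO against WT. It read 26.7 and 28.6 TPM in NFIB/X-dKO, 46 and 71.1 in NFIB-cKO, 248 and 261 in NFIX-cKO, and 460.2 and 353 in WT. The 4 groups did not overlap in that order, from lowest to highest. Differences are given as log2(TPM + 1) ± SE from limma, with p-values adjusted over all 15434 genes tested (Benjamini-Hochberg), and this scale understates the change of genes near 1 TPM. Krt24 fell in NFIB/X-dKO against WT (-3.82 ± 0.22, adjusted p = 0.00102) and in NFIB-cKO against WT (-2.80 ± 0.22, adjusted p = 0.00505). It also fell in NFIB/X-dKO against NFIX-cKO (-3.15 ± 0.22, adjusted p = 0.00363).

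In NFIX-cKO against WT the Krt24 difference of -0.66 ± 0.22 did not pass (adjusted p = 0.626). NFIB/X-dKO stood -1.02 ± 0.22 from NFIB-cKO (adjusted p = 0.196), where animal range and genotype cannot be told apart. The non-additive term, the NFIB/X-dKO difference from NFIB-cKO minus the NFIX-cKO difference from WT, was -0.36 ± 0.31 (adjusted p = 0.629). Expected counts of Krt24 were 1739 and 1967 in NFIB/X-dKO, against 17609 and 20726 in NFIX-cKO, and edgeR's quasi-likelihood test on them also called it lower (log2 fold change -3.45, adjusted p = 0.0457), the 1 keratin called there, beside 0.322% of 18349 genes (0.12% higher and 0.202% lower). DESeq2 called 5 keratins on the same counts, all lower (Krt2, Krt14, Krt15, Krt24 and Krt75), beside 830 of the 18998 genes to which it gave an adjusted p, or 4.37% (1.77% higher and 2.6% lower). The calls against WT in NFIB-cKO and against NFIX-cKO ended when animals were compared within their number range (-2.60, adjusted p = 0.0674, and -3.12, adjusted p = 0.0625), and that against NFIX-cKO also ended without NFIB/X-dKO 33 (adjusted p = 0.0517).

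Pooling the genotypes by their labels puts 2 animals of each number range on either side: NFIB-deleted (NFIB-cKO and NFIB/X-dKO) against NFIB-retaining (NFIX-cKO and WT). Krt24 fell there (-2.97 ± 0.16, adjusted p = 0.00138), with 4 of 4 NFIB-deleted libraries below every NFIB-retaining library. In this comparison 3 of the 25 keratins tested passed, 1 higher and 2 lower, while 2.48% of all genes passed (1.48% higher and 0.991% lower). The other keratins that passed were Krt75 and Krt17, described with their class. All 4 NFIB-deleted libraries share the Cre and the YFP gate. On the other side WT has neither, and NFIX-cKO has both with 1 floxed Nfib allele. These traits are thus partly mixed into the pooled difference.

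Krt15, the most abundant type I keratin and a standard bulge marker, read 7507 and 8704 TPM in NFIB/X-dKO, 13202 and 8967 in NFIB-cKO, 13838 and 14487 in NFIX-cKO, and 13164 and 11904 in WT. Both NFIB/X-dKO libraries lay below all others, yet the difference from WT did not pass (-0.63 ± 0.21, adjusted p = 0.193), nor did that from NFIX-cKO (-0.81 ± 0.21, adjusted p = 0.166). Krt19, which marks bulge cells in skin, missed the filter for limma. It read 0.42 and 0.59 TPM in NFIB/X-dKO, 0.54 and 0.56 in NFIB-cKO, 0.6 and 0.55 in NFIX-cKO, and 1.1 and 0.77 in WT. Its expected counts were only 16 to 26 in the libraries that have them, which include no WT library. On expected counts in NFIB/X-dKO against NFIX-cKO its log2 fold change was -0.60 (edgeR adjusted p = 0.534).

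Sorted cells carried the bulge markers in every group: 11 of 11 listed markers passed the filter, with sums of 4399 to 4616 TPM in NFIB/X-dKO, 5936 to 6740 in NFIB-cKO, 4350.4 to 5793 in NFIX-cKO and 6561 to 6661 in WT. The largest part of these sums was Postn, at 2679 and 2350 TPM in NFIB/X-dKO and 4189 and 3980 in WT. Its difference there did not pass (-0.70, adjusted p = 0.16). Beside Krt24, 3 of the 11 markers fell in NFIB/X-dKO against WT, the stem cell regulator genes Lhx2 (-1.42), Lgr5 (-1.57) and Foxc1 (-0.90), and 0 rose, beside 2.88% of all genes called in that comparison (1.62% higher and 1.26% lower). Before adjustment 1 of the 11, the sort marker Itga6 (0.65), was higher with p under 0.05, as were 10.9% of all genes. In a bulk sample, fewer cells of a type and less RNA per cell cannot be told apart. Of 9 sebaceous markers 6 fell in the same comparison, again beside 1.26% of all genes lower, led by Cidea (-3.58), Elovl3 (-3.77), Scd1 (-2.79) and Far2 (-2.60). Sums over the 9 were 412 to 417 TPM in NFIB/X-dKO, 346 to 359.6 in NFIB-cKO, 458 to 480.2 in NFIX-cKO and 511 to 661 in WT. Mgst1 stood the other way and did not pass (0.40, adjusted p = 0.132), and it made most of the NFIB/X-dKO sums. It read 314 and 324 TPM in NFIB/X-dKO, 246 and 218 in NFIB-cKO, 260.0 and 256 in NFIX-cKO, and 243 and 239 in WT. Of 8 fibroblast markers 2 passed the filter, and these went opposite ways: Col1a1 rose (1.97, adjusted p = 0.0219), while Col1a2 stood at -1.63 and did not pass (adjusted p = 0.223). Col1a2 read 2.17 and 2.81 TPM in NFIB/X-dKO, 9.22 and 3.26 in NFIB-cKO, 10.6 and 33.6 in NFIX-cKO, and 11.8 and 8.01 in WT. The list's sums, which in the NFIB/X-dKO libraries were nearly all Col1a1 (53.3 and 65.1 TPM), were 55.9 to 68.4 TPM in NFIB/X-dKO, 59.3 to 87.4 in NFIB-cKO, 25.7 to 42.8 in NFIX-cKO and 24.6 to 25.8 in WT. The part of these markers in the keratin differences was not tested.

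Neither basal keratin passed in any contrast by limma as deposited. Krt5, the type II member of the pair (chromosome 15, 101707070 to 101712898), read 13449 and 14672 TPM in NFIB/X-dKO, 14731 and 12468 in NFIB-cKO, 15703 and 14319.8 in NFIX-cKO, and 14174 and 11780.0 in WT. NFIX-cKO lay above WT, the other knockout groups overlapped with it, and the pooled NFIB-deleted minus NFIB-retaining difference was -0.01 ± 0.12 (adjusted p = 0.976). Krt14, the type I partner (chromosome 11, 100203162 to 100207548), read 1901 and 1990.1 TPM in NFIB/X-dKO, 2111 and 3058 in NFIB-cKO, 3722 and 3580.1 in NFIX-cKO, and 4692 and 3143 in WT. The 4 NFIB-deleted libraries lay below the 4 NFIB-retaining ones, with 3058 TPM as the highest of the one and 3143 TPM as the lowest of the other. Its pooled difference of -0.75 ± 0.17 missed the threshold (adjusted p = 0.0748) and passed with animal range as a covariate (adjusted p = 0.0407), and against WT it was -0.98 ± 0.24 in NFIB/X-dKO (adjusted p = 0.0887). By letters, 14.4% of the 50-base stretches of the Krt14 transcript also occur in other genes, most of them in Krt16, so a part of its reads could be shared.

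**Figure D2:**
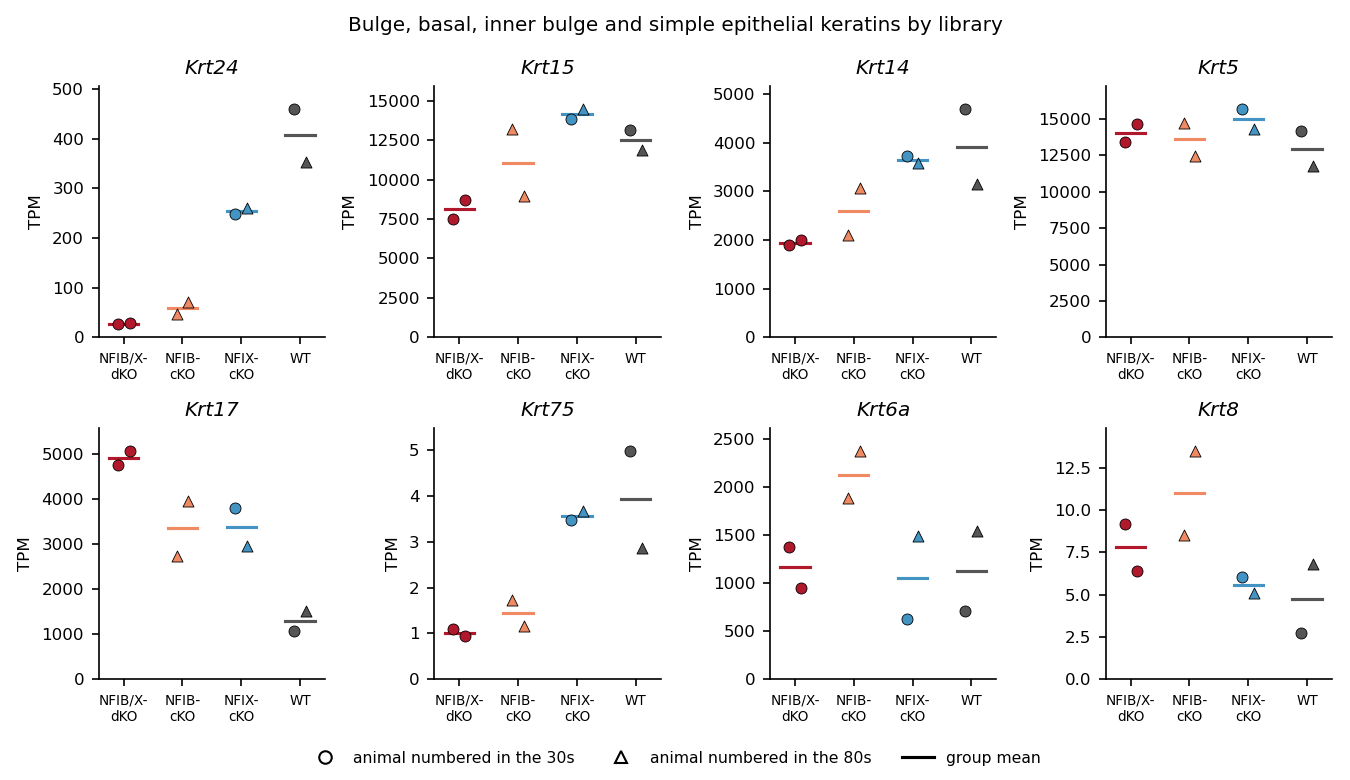
TPM of 8 keratins in each library, with groups along the horizontal axis, circles for animals numbered in the 30s, triangles for the 80s and a line at each group mean. Krt24 and Krt75 sit low in NFIB/X-dKO and NFIB-cKO, Krt17 is at 2732 TPM or more in all 6 knockout libraries and at 1515 TPM or less in WT, and Krt5 stays between 11780.0 and 15703 TPM.

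Of the 5 inner bulge and wound keratins, Krt17 rose and Krt75 fell in NFIB-deleted against NFIB-retaining, and the other 3 did not pass. Their summed level was 6171 and 6059.8 TPM in NFIB/X-dKO, 4652 and 6427 in NFIB-cKO, 4455 and 4551 in NFIX-cKO, and 1799 and 3099.8 in WT, so all 6 knockout libraries lay above WT. Krt17, a type I keratin of the companion layer and of stressed epidermis (chromosome 11, 100256217 to 100261029), made most of that sum in the 6 knockout libraries. It read 4752 and 5077 TPM in NFIB/X-dKO, 2732 and 3972 in NFIB-cKO, 3803 and 2961 in NFIX-cKO, and 1066 and 1515 in WT. The 6 knockout libraries lay above both WT libraries, and NFIB-cKO and NFIX-cKO overlapped.

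Krt17 rose in NFIB/X-dKO against WT (1.95 ± 0.25, adjusted p = 0.0117). Without NFIB/X-dKO 33 or without NFIB/X-dKO 36 this call ended, at nearly the same size (2.00, adjusted p = 0.0935, and 1.90, adjusted p = 0.116). Against WT it stood at 1.37 ± 0.25 in NFIB-cKO (adjusted p = 0.0745) and at 1.40 ± 0.25 in NFIX-cKO (adjusted p = 0.194). The non-additive term was -0.82 ± 0.35 (adjusted p = 0.519). It also rose in NFIB-deleted against NFIB-retaining (0.96 ± 0.17, adjusted p = 0.0404), although NFIX-cKO 32 at 3803 TPM lay above NFIB-cKO 81 at 2732 TPM, and that call ended after median-of-ratios scaling (adjusted p = 0.143). All 6 libraries with raised Krt17 also share the Cre and the YFP gate. Over all genes, 8.97% had the 6 knockout libraries clear of WT on one side, 4.81% above and 4.16% below, and among the 25 keratins 4 lay above (Krt17, Krt27, Krt28 and Krt73) and 2 below (Krt24 and Krt222).

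Krt75, a type II keratin of the companion layer (chromosome 15, 101563345 to 101573904), went the other way at a low level. It read 1.1 and 0.94 TPM in NFIB/X-dKO, 1.72 and 1.17 in NFIB-cKO, 3.47 and 3.66 in NFIX-cKO, and 4.98 and 2.86 in WT. The NFIB-deleted and NFIB-retaining libraries did not overlap, and expected counts behind these values were 128 and 116 in NFIB/X-dKO and 162 in NFIB-cKO 85, against 441 and 520.1 in NFIX-cKO. Krt75 fell in NFIB-deleted against NFIB-retaining (-1.08 ± 0.19, adjusted p = 0.0355). That call ended when single libraries were left out, with WT 82 as the exception (adjusted p = 0.0267 without it and 0.0617 to 0.192 without each of the others). In NFIB/X-dKO against WT it did not pass (-1.25 ± 0.27, adjusted p = 0.0624) and passed after scaling (-1.34, adjusted p = 0.0357). On expected counts in NFIB/X-dKO against NFIX-cKO its log2 fold change was -2.06 (edgeR adjusted p = 0.088; DESeq2 adjusted p = 3.71e-09).

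Krt6a, the type II wound keratin, read 1379 and 948 TPM in NFIB/X-dKO, 1884 and 2376 in NFIB-cKO, 631 and 1486 in NFIX-cKO, and 706 and 1539 in WT. Animals of the 80s were the higher ones in NFIX-cKO and in WT, and both NFIB-cKO animals belong to that range. Krt16, its type I partner in wounds, read 31.2 and 32 TPM in NFIB/X-dKO, 34.1 and 77 in NFIB-cKO, 17.1 and 98.4 in NFIX-cKO, and 18.6 and 43.1 in WT, again higher in the 80s. No difference between genotypes passed for Krt6a or Krt16 in any of the 7 contrasts by limma. Krt6b, a near copy of Krt6a, stayed between 0.14 and 7.6 TPM. Of the 50-base stretches of Krt6a and Krt6b, 49.5% and 50.1% also occur in other genes, and 43.6% and 44.5% in each other. For Krt16, 37.6% of its stretches occur in other genes, among them Gm11597, Krt14 and Krt17. How reads split between genes that share stretches is thus uncertain.

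The mix of type I keratins differed between the groups. In NFIB/X-dKO 33 and 36, Krt15 made 48.7% and 51.3% of type I keratin TPM, Krt17 30.8% and 29.9%, and Krt14 12.3% and 11.7%. In WT 34 and 82, Krt15 made 64.4% and 67.9%, Krt14 22.9% and 17.9%, and Krt17 5.22% and 8.64%. Krt17 made 14.8% and 24.1% in NFIB-cKO and 16.4% and 13.6% in NFIX-cKO. Krt17 thus outnumbered Krt14 in NFIB/X-dKO, with a Krt17 to Krt14 ratio of 2.50 and 2.55, against 0.227 and 0.482 in WT. The single knockouts lay between, at 1.29 and 1.30 in NFIB-cKO and 1.02 and 0.827 in NFIX-cKO.

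Type II keratin TPM was mostly Krt5 (80.8% to 88.2% over the 8 libraries), followed by Krt6a (3.48% to 15.4%). The ratio of type I to type II TPM was 0.957 and 1.005 in NFIB/X-dKO and 1.08 and 1.07 in NFIB-cKO, against 1.28 and 1.32 in NFIX-cKO and 1.27 and 1.24 in WT. The 4 NFIB-deleted libraries lay below the 4 NFIB-retaining libraries. The summed TPM of all keratins was 31557 and 33827 in NFIB/X-dKO and 35675 and 31894 in NFIB-cKO. It was 41390 and 38314 in NFIX-cKO and 36508 and 31729 in WT. Both NFIX-cKO libraries lay above those of the other groups, which overlapped. These sums and ratios are descriptions with no test.

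**Figure D3:**
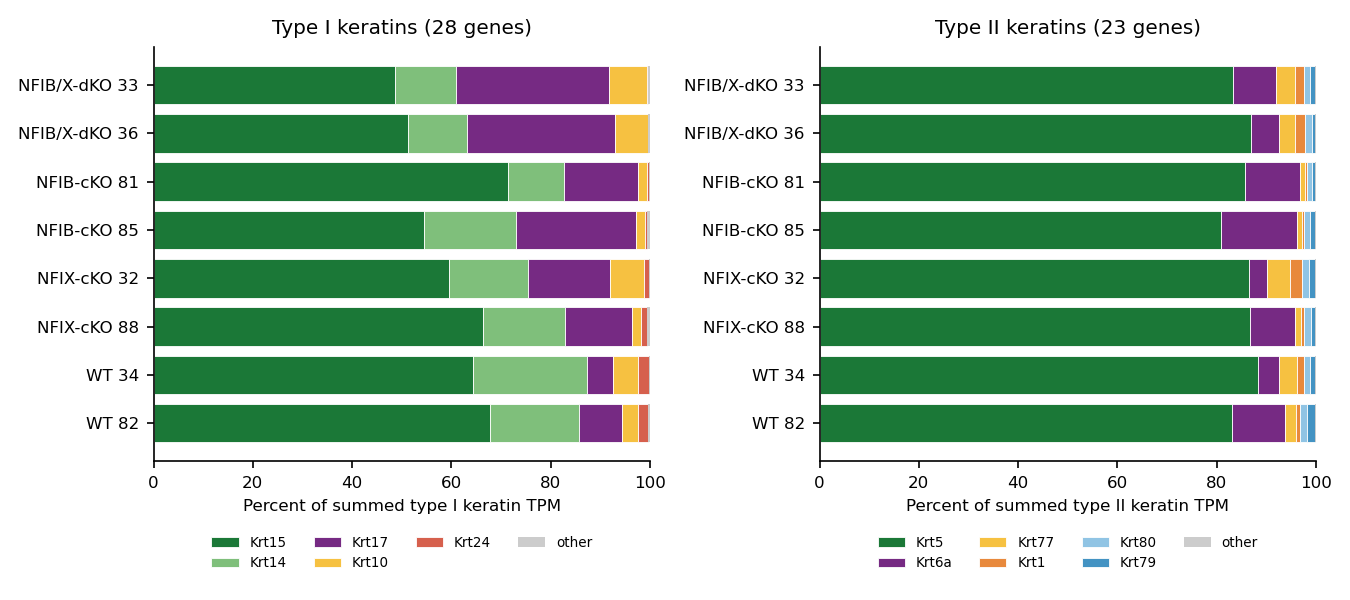
Share of summed type I (left) and type II (right) keratin TPM taken by each main keratin, as percent along the horizontal axis, with 1 bar for each library. Krt17 takes 29.9% to 30.8% of type I TPM in NFIB/X-dKO and 5.22% to 8.64% in WT, while Krt5 takes 80.8% or more of type II TPM in every library.

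Of the 6 suprabasal keratins tested, 4 (Krt1, Krt10, Krt77 and Krt78) differed between the animal ranges, and 0 of the 6 passed between genotypes in the 7 contrasts by limma. Krt10, which cells make on leaving the basal layer, read 1188 and 1102 TPM in NFIB/X-dKO, 352 and 296 in NFIB-cKO, 1596 and 396 in NFIX-cKO 32 and 88, and 1010.0 and 557 in WT 34 and 82. All 4 animals of the 30s lay above all 4 of the 80s. Its type II partner Krt1 read 312 and 361 TPM in NFIB/X-dKO, 72.7 and 67.2 in NFIB-cKO, 444 and 102 in NFIX-cKO, and 216 and 124 in WT. Krt77, a type II keratin of the suprabasal epidermis, read 615 and 529 TPM in NFIB/X-dKO, 193 and 147 in NFIB-cKO, 863 and 204 in NFIX-cKO, and 576 and 301 in WT. Krt78, a further suprabasal type II keratin, read 12.9 and 10.7 TPM in NFIB/X-dKO, 3.69 and 3.35 in NFIB-cKO, 16.1 and 3.99 in NFIX-cKO, and 12.9 and 6.46 in WT. Across the 8 libraries the Krt10 to Krt77 ratio lay between 1.76 and 2.08 and the Krt10 to Krt1 ratio between 3.06 and 4.85.

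With groups in the model, the 80s minus 30s difference, which comes from the animal pairs of NFIX-cKO and WT, was called for 7 of the 25 keratins, 2 higher and 5 lower, beside 15.8% of all genes (3.23% higher and 12.6% lower). Krt78 (-1.33 ± 0.23, adjusted p = 0.0321), Krt10 (-1.43 ± 0.26, adjusted p = 0.0341), Krt77 (-1.51 ± 0.28, adjusted p = 0.0344), Krt1 (-1.46 ± 0.29, adjusted p = 0.0356) and Krt23 (-1.03 ± 0.17, adjusted p = 0.0323) fell in the 80s. Krt6a (1.18 ± 0.20, adjusted p = 0.033) and Krt16 (1.81 ± 0.44, adjusted p = 0.0462) rose in them. Libraries of the 2 ranges did not overlap for these 7 keratins, as for 32% of all genes (6.25% higher and 25.7% lower in the 80s). Over all genes the median difference was -0.22 as deposited and 0.02 after median-of-ratios scaling. After scaling, Krt6a, Krt23 and Krt78 kept their calls, and Krt77, Krt10, Krt16 and Krt1 kept their sign with adjusted p between 0.0544 and 0.0691. The count fell to 0 without any 1 of the NFIB/X-dKO, NFIX-cKO or WT libraries. For Krt17, Krt24 and Krt15 the range differences were 0.07, -0.15 and -0.04 and did not pass.

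Of 7 measured spinous and granular markers other than keratins, 5 also fell in the 80s as deposited (Dsg1a, Dsc1, Lor, Calml3 and Ivl) and 0 rose. Over all genes 12.6% fell and 3.23% rose. The list median was -0.56, beside -0.22 over all genes. The list's summed TPM was 3537 and 3538 in NFIB/X-dKO, 2324 and 2309 in NFIB-cKO, 3747 and 2269 in NFIX-cKO, and 2492 and 2229 in WT, and its part in the suprabasal keratin levels was not tested. Between genotypes, 0 of the 6 suprabasal keratins tested passed in any of the 7 contrasts by limma. At an unadjusted p under 0.05 there were 4 of the 6 (all higher) in NFIB/X-dKO against NFIB-cKO, where 17.2% of all genes were past it (9.41% higher), and 1 of the 6 (lower) in NFIB-deleted against NFIB-retaining, where 15.4% were (4.07% lower). NFIB-cKO, all in the 80s, stood lowest, with Krt1 at -1.22 ± 0.61 against WT (adjusted p = 0.489) and -0.82 within the 80s (adjusted p = 0.116). NFIB/X-dKO, all in the 30s, stood 2.25 ± 0.61 above NFIB-cKO for Krt1 (adjusted p = 0.253) and 1.82 ± 0.59 for Krt10 (adjusted p = 0.273), a contrast in which range and genotype cannot be told apart.

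The range difference did not pass for the 2 suprabasal keratins left, Krt79 (-0.12, adjusted p = 0.785) and Krt80 (adjusted p = 0.999). Krt79, which marks cells of the upper follicle and its duct, read 147 and 118 TPM in NFIB/X-dKO, 119.7 and 145 in NFIB-cKO, 238 and 142 in NFIX-cKO, and 162 and 229.6 in WT, with a pooled NFIB-deleted difference of -0.51 ± 0.20 (adjusted p = 0.282). Krt80, a widely expressed type II keratin, read 189 and 212 TPM in NFIB/X-dKO, 156 and 202 in NFIB-cKO, 224 and 230.4 in NFIX-cKO, and 199 and 194 in WT. The groups differed by less than their spread for Krt80 in NFIB/X-dKO against WT (0.02 ± 0.15, adjusted p = 0.935). Krt2 and Krt9, of the granular layer and of palm and sole skin, stayed below 1 TPM.

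**Figure D4:**
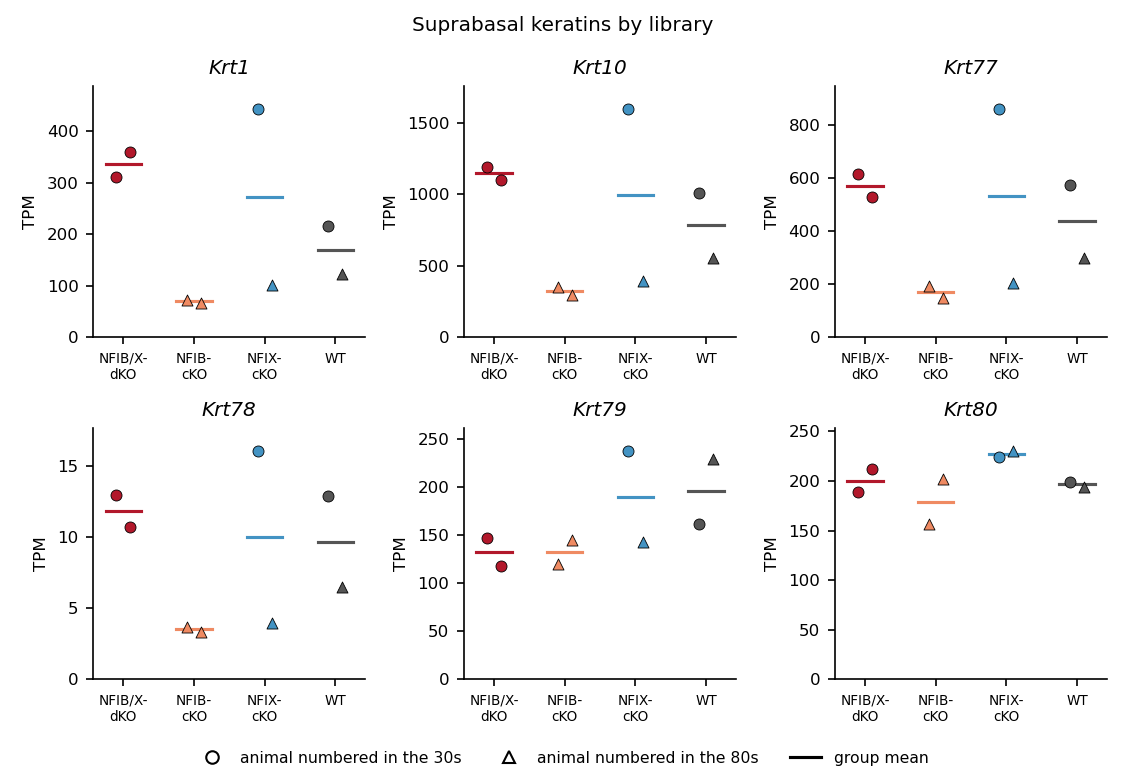
TPM of the 6 suprabasal keratins that passed the filter, by group, with circles for animals numbered in the 30s, triangles for the 80s and a line at each group mean. For Krt1, Krt10, Krt77 and Krt78 the circles lie above the triangles in NFIX-cKO and WT and over all 8 libraries, while Krt79 and Krt80 show no such split.

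Simple epithelial keratins were low. Krt8, a type II keratin of simple epithelia and of Merkel cells, read 9.19 and 6.42 TPM in NFIB/X-dKO, 8.53 and 13.5 in NFIB-cKO, 6.03 and 5.11 in NFIX-cKO, and 2.72 and 6.8 in WT. It did not pass in any contrast, and the pooled NFIB-deleted difference was 0.77 ± 0.27 (adjusted p = 0.238). Krt18, its usual type I partner, read 0.15 to 0.65 TPM, so Krt8 exceeded it 11.6-fold to 40.2-fold. Of the letters of Krt8, 26.9% of 50-base stretches are shared with the pseudogene Krt8-ps, so its reads are uncertain. Merkel cell markers were near 0, with 0 of 9 past the filter, 2 listed at 0 and sums of 0.45 to 0.75 TPM in NFIB/X-dKO, 0.55 to 1.02 in NFIB-cKO, 0.5 to 0.96 in NFIX-cKO and 0.45 to 0.81 in WT.

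Krt7, a type II keratin of simple and glandular epithelia, read 4.82 and 7.16 TPM in NFIB/X-dKO, 3.94 and 3.89 in NFIB-cKO, 3.63 and 2.87 in NFIX-cKO, and 3.18 and 5.06 in WT. NFIB/X-dKO lay above both single knockouts and overlapped with WT, and Krt7 was called in 0 of the 7 contrasts by limma. Krt23, a type I keratin, read 6.63 and 6.84 TPM in NFIB/X-dKO, 3.05 and 2.21 in NFIB-cKO, 10.5 and 3.89 in NFIX-cKO, and 7.89 and 4.03 in WT, the animals of the 30s being the higher. Krt20, a marker of gut epithelium and Merkel cells, did not exceed 0.08 TPM.

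Keratins of the growing hair were scarce in these resting follicles. Among 14 hair shaft keratins only Krt32, a type I cuticle keratin, passed the filter, and the other 13 stayed below 1 TPM. Krt32 read 6.89 and 7.92 TPM in NFIB/X-dKO, 8.01 and 8.8 in NFIB-cKO, 10.8 and 15.9 in NFIX-cKO, and 16 and 9.09 in WT. The NFIB-deleted libraries lay below the NFIB-retaining ones, by as little as 8.8 against 9.09 TPM, with a difference of -0.62 ± 0.20 that missed the threshold (adjusted p = 0.204) and passed within ranges (adjusted p = 0.0342). In the 5 libraries with counts, Krt33b and Krt81 had 0 counts, which allows up to 3 counts per library.

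Inner root sheath keratins did not exceed 2.92 TPM. Krt73, a type II keratin of the inner root sheath cuticle, read 1.03 and 2.24 TPM in NFIB/X-dKO, 0.77 and 1.14 in NFIB-cKO, 0.44 and 0.68 in NFIX-cKO, and 0.16 and 0.34 in WT. The NFIB-deleted libraries lay above the NFIB-retaining ones, yet the difference did not pass (0.68 ± 0.21, adjusted p = 0.17), and in NFIB/X-dKO against WT it was 1.04 ± 0.29 (adjusted p = 0.135). The type I sheath keratins Krt25, Krt27 and Krt28 lay between 0.59 and 2.92 TPM and passed in 0 contrasts. Mucosal and corneal keratins (Krt4, Krt12, Krt13 and Krt76) did not exceed 0.79 TPM. Krt42 lay between 0.77 and 2.87 TPM, and Krt222, a keratin-like protein gene, between 1.06 and 1.38 TPM in the 6 knockout libraries, against 2.03 and 1.87 TPM in WT.

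Counted over the family, 2 of 25 keratins passed in NFIB/X-dKO against WT, Krt17 higher and Krt24 lower, beside 2.88% of all genes (1.62% higher and 1.26% lower). In NFIB-cKO against WT 1 passed as lower, beside 0.719% of all genes (0.292% higher and 0.428% lower). In NFIX-cKO against WT 0 passed by limma, beside 0.149% of all genes (0.0842% higher and 0.0648% lower), and 3 of 25 had an unadjusted p under 0.05, beside 6.81% of all genes. NFIB/X-dKO against NFIB-cKO called 0, beside 0.227% of all genes (0.156% higher and 0.0713% lower), and 7 of 25 had an unadjusted p under 0.05, beside 17.2% of all genes. NFIB/X-dKO against NFIX-cKO called 1 as lower, beside 0.784% (0.46% higher and 0.324% lower). The non-additive contrast called 0, beside 0.117% of all genes (0.0648% higher and 0.0518% lower), and 1 of 25 had an unadjusted p under 0.05, beside 9.43% of all genes. The median keratin stood at 0.15 in NFIB/X-dKO against WT and the median of all genes at 0.16. Median-of-ratios scaling moved the all-gene median there to 0.00 and the keratin median to -0.03, and left Krt24 at -3.99 and Krt17 at 1.77, both called. In NFIB-deleted against NFIB-retaining the keratin median was -0.16, beside 0.10 over all genes, and after scaling -0.27 beside 0.01.

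**Figure D5:**
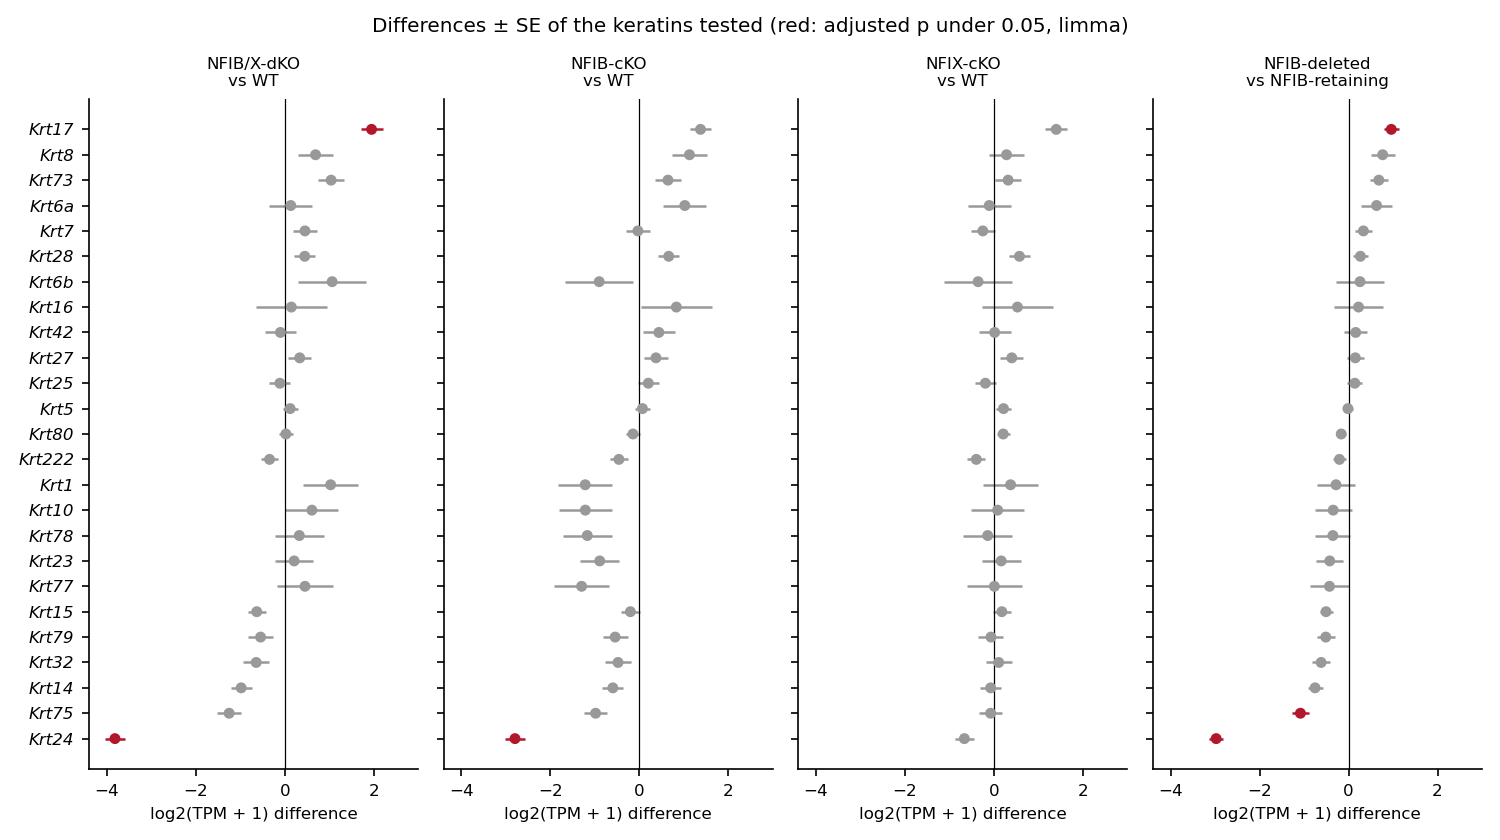
Differences of the 25 tested keratins on the log2(TPM + 1) scale (horizontal axis, ± SE) in 4 comparisons, with genes called by limma in red. Krt24 lies at -3.82 and Krt17 at 1.95 in NFIB/X-dKO against WT, and both with Krt75 are called in NFIB-deleted against NFIB-retaining, where the remaining 22 keratins are not.

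In NFIB-deleted against NFIB-retaining, 1 keratin (Krt73) had all 4 libraries above and 4 (Krt14, Krt24, Krt32 and Krt75) all 4 below, where 8.95% of all genes were so parted, 6.84% above and 2.11% below. Between the NFIB/X-dKO pair and the WT pair, 6 of the 25 keratins lay above and 7 below, where 55.5% of all genes were parted, 38.4% above and 17.1% below. Genes whose products hold keratin filaments did not pass the test. Of 16 measured genes on the linker list, 0 passed in each of the 7 contrasts by limma. Most of them encode desmosomal plaque proteins, plakins and filament bundling proteins. Krtdap, also on the spinous and granular list, is not of these kinds. The list's sums were 3393 and 3540.2 TPM in NFIB/X-dKO, 2318 and 2620.0 in NFIB-cKO, 3049 and 2242 in NFIX-cKO, and 2662 and 2365 in WT. Krtdap alone read 1384 and 1326 TPM in NFIB/X-dKO, 446 and 600.1 in NFIB-cKO, 1132 and 583 in NFIX-cKO, and 580.1 and 517 in WT. In the 80s 5 of the 16 fell as deposited, beside 12.6% of all genes, with a list median of -0.35 beside -0.22 over all genes. At an unadjusted p under 0.05 there were 1 to 4 of the 16 in each contrast. The share of all genes past that threshold was 16.8% in NFIB/X-dKO against WT, 12.6% in NFIB-cKO against WT, 6.81% in NFIX-cKO against WT, 17.2% in NFIB/X-dKO against NFIB-cKO, 14.5% in NFIB/X-dKO against NFIX-cKO, 15.4% in NFIB-deleted against NFIB-retaining and 9.43% in the non-additive contrast. The 4 of the list past it in NFIB/X-dKO against WT, Krtdap among them, were all higher, beside 10.9% of all genes. Of 14 measured transcription factor genes known to act on keratins (such as Trp63 and Klf4) and 5 other intermediate filament genes, 0 passed by limma in each contrast, with at most 3 of the 14 (in NFIB-deleted against NFIB-retaining) and 2 of the 5 (in NFIB/X-dKO against NFIB-cKO) at an unadjusted p under 0.05, beside 15.4% and 17.2% of all genes. The upper follicle markers (8 measured) and hair shaft markers (5 measured) likewise had 0 calls by limma in NFIB/X-dKO against WT, with 4 and 3 at an unadjusted p under 0.05, beside 16.8% of all genes.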

How the data were processed

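The authors deposited a TPM table of 46609 features for 8 libraries, of which 92 were spike-in sequences with 0 TPM, and all 8 columns were matched to samples by title, with 0 left unmapped. For 5 libraries the gene tables deposited by the authors also give expected counts, FPKM and transcript lengths. FPKM and lengths were used for no result. Per the submitters' processing notes, RSEM 1.2.30, Bowtie2 2.2.9 and the builds mm10 and GRCm38 were used, and the annotation release is not given in the sources used here. TPM in the 2 kinds of table was equal (largest difference 0).

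Differences were tested with limma 3.58.1 (under R 4.3.3), using a variance trend on log2(TPM + 1), a pseudocount of 1, over the 15434 genes with at least 1 TPM in at least 2 libraries, all 8 libraries fitted together (4 residual and 3.1 prior degrees of freedom), and Benjamini-Hochberg adjusted p-values under 0.05. The contrasts numbered 7. For NFIB/X-dKO against NFIX-cKO, edgeR 4.0.16 (quasi-likelihood, TMM, filterByExpr) was run on the deposited expected counts rounded to whole numbers (18349 genes), with DESeq2 1.42.0 as an alternative. P-values measure the spread between libraries of animals with separate numbers. The comparison of animal ranges was added after the data were seen. The steps were tested on simulated data.

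Keratins with a group mean of at least 1 TPM were named, and those at 10 TPM or more, or called, were given by library; other genes were named when called, up to 4 per list. Classes follow known tissue use, and class, marker and pathway lists, like the members, were chosen with earlier results of these data known. The lists Flg, Dst and Eppk1 belong to were used without these 3 genes, which had 8, 2 and 0 rows. Krt83 is the symbol in the table, and GENCODE M21 names that gene Krt87. Coordinates and transcript letters come from GENCODE M21, promoters from RefSeq. The alternatives were a pseudocount of 0.1, no filter, median-of-ratios scaling, animal range as a covariate or within ranges, and each library left out.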

Additional observations from a re-analysis of the deposited data

How the results depend on the processing

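Krt24 stayed called in NFIB/X-dKO against WT under every setting run, between -4.01 and -3.63. The number of keratins called in that contrast (2) was 1 with no filter and 1 to 2 with libraries left out, 1 without either NFIB/X-dKO library. In NFIB-cKO against WT (1) it was 0 within animal ranges. NFIB/X-dKO against NFIB-cKO (0) gave 0 to 1, the 1 being Krt1 without either NFIX-cKO library, and NFIB/X-dKO against NFIX-cKO (1) gave 0 within ranges and 0 to 1 with libraries left out. NFIB-deleted against NFIB-retaining (3) gave 1 with no filter, 2 after scaling, 4 with the range covariate or within ranges, and 1 to 3 with libraries left out, Krt24 being called in each. By counts (1), DESeq2 called 5, no filter 3, and left-out libraries gave 0 to 17, 0 without either NFIB/X-dKO library, 14 without NFIX-cKO 88 and 17 without NFIX-cKO 32. The range comparison (7) gave 3 after scaling and 0 to 7 with libraries left out, 0 without any NFIB/X-dKO, NFIX-cKO or WT library. In each case the cause was not tested.

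Over all genes, calls in NFIB/X-dKO against WT numbered 445, 270 with no filter and 40 without NFIB/X-dKO 36. NFIB-cKO against WT called 111, 29 with no filter, 200 with the range covariate and 45 within ranges. NFIX-cKO against WT called 23, and 44 with the covariate. NFIB/X-dKO against NFIB-cKO called 35, 23 with a pseudocount of 0.1, 71 with no filter and 22 with the covariate. NFIB/X-dKO against NFIX-cKO called 121, 17 within ranges, and by counts 59, 830 with DESeq2 and 202 with no filter. NFIB-deleted against NFIB-retaining called 382 (229 higher), 210 with no filter, 1214 with the covariate (881 higher) and 1006 within ranges (685 higher). The non-additive contrast called 18, 9 with a pseudocount of 0.1 and 61 with no filter. The range comparison called 498 higher and 1937 lower, and after scaling 797 higher and 286 lower.

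For NFIB/X-dKO against NFIB-cKO and the non-additive contrast, no within-range value exists: NFIB/X-dKO and NFIB-cKO each lie in 1 range. No paired analysis was possible because no animal number is shared between groups. Depth was unknown in 3 libraries, and with 2 libraries a group small differences were not detectable.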
